A study of Mus musculus with 30 samples.

Results

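Genes coding for 9 enzymes that metabolise foreign compounds were followed across lung and trachea of mouse embryos with and without a conditional deletion of Myocd. They were Cyp2f2, Cyp2s1, Cyp4b1, Cyp1b1, Aldh3a1, Ces1d, Fmo2, Por and Ephx1, found by symbol among the 53715 genes of each deposited count table. All 9 had reads in the libraries of every tissue at E18.5, while 7 of the 9 passed the filter on low counts in E13.5 lung.

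Foreign compounds are handled in steps. Cytochrome P450 enzymes and flavin monooxygenases add oxygen, P450 enzymes of the endoplasmic reticulum receiving their electrons from the P450 reductase that Por encodes. Epoxide hydrolases, aldehyde dehydrogenases and carboxylesterases then act on reactive epoxides, aldehydes and esters, and transferases attach groups that make the products soluble. In the mouse lung much of this activity sits in club cells, the non-ciliated secretory cells of the airway, and CYP2F2 of these cells is known for turning naphthalene into a toxic epoxide.

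Myocd codes for myocardin, a coactivator needed for smooth muscle genes, and the groups compare organs with and without its conditional deletion. Mutants were labelled Tbx4rtTAi/+; tetOcrei/+; MyocdF/F and controls Tbx4rtTAi/+; tetOcrei/+; MyocdF/+, so that the controls shared the transgenes and had 1 floxed allele, except E13.5 control replicate 1, labelled MyocdF/F with no transgene. Tbx4 drives the transactivator in the lung mesenchyme, so the enzymes described here, mostly of epithelium, are read in whole organs in which other cells were targeted. At E13.5 the lungs, taken with all lobes of each side, were 5 mutant and 5 control, and at E18.5 there were right lung lobes of 6 mutants and 4 controls and tracheas of 6 mutants and 4 controls, each library from a single organ. The labels are silent on doxycycline.

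Library totals, in M counts, spanned 11.7 to 30.5 for trachea, 19.9 to 32.8 for lung at E18.5 and 17.4 to 28.5 for lung at E13.5. Counts over the whole Myocd gene are no check of the genotypes, since which exons were floxed is not stated: at E18.5 its level was 5.69 to 10.4 counts per M counts (CPM) in mutant lung and 6.14 to 12.1 CPM in control lung. The tissue markers went with the labels: alveolar type 2 genes summed to 1386 to 1498 CPM in control trachea and 18475 to 21438 CPM in control E18.5 lung, and basal cell genes to 1072 to 1109 CPM in control trachea and 53.2 to 59.8 CPM in control lung. Ribosomal RNA, here always with mitochondrial ribosomal RNA included, took 0.983% to 15.7% of counts in mutant trachea and 1.03% to 3.32% in control trachea. Mutant trachea replicate 4, at 15.7%, and control trachea replicate 2, the shallowest at 11.7 M, stood apart. Some results in trachea are also given without either or both of them. In whole organs, fewer cells of a type and less RNA per cell cannot be told apart.

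In the GRCm38 genome, Cyp2f2 (chr7:27119909-27133660, plus strand) and Cyp2s1 (chr7:25802475-25816913, minus strand) lie on the same chromosome. Cyp4b1 is at chr4:115624725-115647723 and Cyp1b1 at chr17:79706953-79715041, both minus strand. Aldh3a1 is at chr11:61207537-61218421 on the plus strand, Ces1d at chr8:93166068-93197838 and Fmo2 at chr1:162874317-162898726 on the minus strand, Por at chr5:135670033-135735326 on the plus strand and Ephx1 at chr1:180976210-181020904 on the minus strand. The antisense gene Gm15883 covers some of the exon bases of Cyp2f2. It held 16 to 105 reads per E18.5 lung library and 74 to 266 per trachea library, and libraries were not stranded, so reads from the shared stretch cannot be assigned. Ces1d has close carboxylesterase copies, and the counting command in the file headers sets no option to count reads with several mapping places.

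Upstream sequences are shown for 2 pairs of genes whose levels resembled each other across the libraries: Cyp2f2 with Ephx1, and Cyp4b1 with Fmo2. Each begins 250 bases before the RefSeq start site and ends before the first annotated exon base, on the gene's strand, from RefSeq on GRCm38.p6. RefSeq entries existed for 7 of the 9 genes, with none for Aldh3a1 and Ces1d. The Cyp2f2 stretch is chr7:27119705-27119908 (plus), the Ephx1 stretch chr1:181017570-181017819 (minus, inside the annotated gene, in an intron of its longer transcripts), the Cyp4b1 stretch chr4:115647724-115647971 (minus) and the Fmo2 stretch chr1:162898759-162899008 (minus). Capitals mark matches to motifs searched on both strands: GCGTG of the aryl hydrocarbon receptor, TGANNNNGC of NRF2, TTGCNNAA of C/EBP, TGTTTAC of FOXA and CTCAAG of NKX2-1.
Cyp2f2: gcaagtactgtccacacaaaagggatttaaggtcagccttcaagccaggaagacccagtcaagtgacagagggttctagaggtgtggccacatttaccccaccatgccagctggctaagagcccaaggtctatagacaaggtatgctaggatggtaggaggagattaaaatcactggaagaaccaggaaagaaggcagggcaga
Ephx1: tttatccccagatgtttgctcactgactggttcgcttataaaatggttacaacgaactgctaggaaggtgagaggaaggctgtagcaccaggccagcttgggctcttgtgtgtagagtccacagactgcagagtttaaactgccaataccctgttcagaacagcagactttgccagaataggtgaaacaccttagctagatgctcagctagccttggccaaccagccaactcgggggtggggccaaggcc
Cyp4b1: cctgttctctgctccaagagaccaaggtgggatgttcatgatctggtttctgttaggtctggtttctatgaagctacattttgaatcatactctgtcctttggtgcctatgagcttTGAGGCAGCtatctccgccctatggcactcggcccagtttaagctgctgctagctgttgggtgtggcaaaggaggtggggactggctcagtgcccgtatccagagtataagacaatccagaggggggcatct
Fmo2: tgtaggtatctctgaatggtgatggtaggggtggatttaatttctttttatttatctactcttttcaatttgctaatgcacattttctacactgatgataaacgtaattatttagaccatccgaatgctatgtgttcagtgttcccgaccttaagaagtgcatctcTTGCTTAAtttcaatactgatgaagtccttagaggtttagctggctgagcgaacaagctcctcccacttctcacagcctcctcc
The Cyp2f2 and Ephx1 stretches hold no match to any of the 5 motifs. The Cyp4b1 stretch holds 1 NRF2 match, present in 34.9% of 32544 distinct RefSeq promoters cut to the same length, and the Fmo2 stretch 1 C/EBP match, present in 9.58% of them, and the matches do not overlap others. A match describes letters, not binding.

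The 9 genes differed widely in level between tissues and stages, as the plot of all libraries shows.

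**Figure D1:**
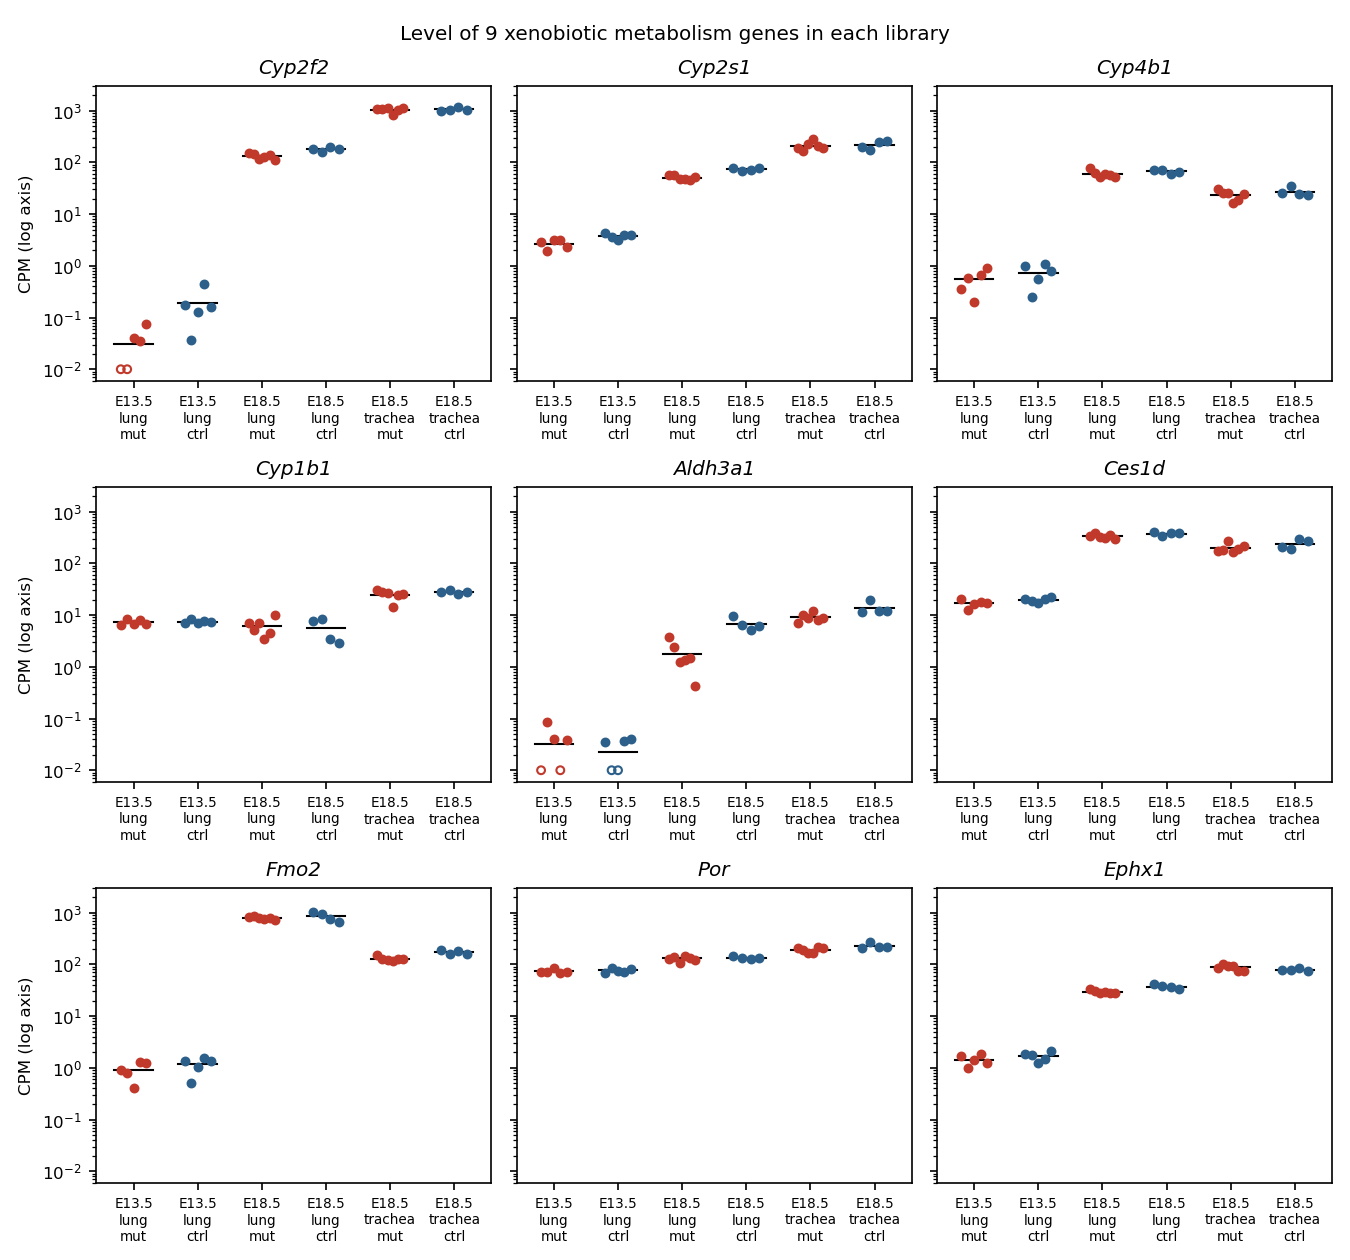
Level of each of the 9 genes in the 30 libraries, in CPM on a log axis shared by all panels. Each point is 1 library (red mutant, blue control), short lines are group means, and open points, drawn at 0.01 CPM, are libraries with 0 reads. All of the genes but Cyp1b1 sit higher at E18.5 than at E13.5 in lung, and Cyp2f2 reaches 1183 CPM in control trachea.

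Between E13.5 and E18.5 the control lung gained most of these enzymes. In all, 8 of the 9 genes were higher at E18.5 than at E13.5, in a fit of 20 lung libraries with edgeR at an adjusted p under 0.05, where 37.4% of all 18639 genes tested were also higher and 74.7% changed in either direction. The median log2 fold change was 4.45 over the 9 genes and -0.01 over all genes. Stage and count table are the same split of libraries, so the effect of the stage cannot be told apart from differences between tables.

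The lung P450 Cyp2f2 was close to undetected at E13.5. It had 179, 158, 195 and 179 CPM in control E18.5 lung, against 0.174, 0.0363, 0.127, 0.450 and 0.158 CPM in control E13.5 lung. Those E13.5 values rest on 25 reads in all, from 1 to 12 per library, against 20337 reads at E18.5, a ratio per M total counts of 927 with an exact 95% interval of 628 to 1432 for counting error alone. E13.5 control replicate 4 held 12 of the 25 reads, and without it the ratio was 1422 (832 to 2672). Cyp2s1, a P450 of epithelia known from work in human cells to be induced through the aryl hydrocarbon receptor, had 78.9, 69.0, 70.5 and 76.7 CPM at E18.5, against 4.32, 3.66, 3.21, 3.90 and 3.98 CPM at E13.5, a log2 difference of 4.26 (SE 0.121, edgeR adjusted p = 1.56e-19). Cyp4b1, a P450 of lung that acts on fatty acids and activates several pneumotoxic compounds, had 72.5, 71.4, 58.9 and 64.4 CPM at E18.5, against 0.976, 0.254, 0.548, 1.09 and 0.789 CPM at E13.5. No library of 1 stage overlapped the other for these 3 genes, and the share of all genes without overlap was not counted.

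Cyp1b1, a P450 that metabolises polycyclic hydrocarbons and oestrogens and is known from mesenchymal cells, did not follow. It had 7.85, 8.54, 3.46 and 2.84 CPM in control E18.5 lung, against 6.94, 8.34, 6.92, 7.76 and 7.26 CPM in control E13.5 lung, a log2 difference of -0.39 (SE 0.277, edgeR adjusted p = 0.205). Of the 4 E18.5 libraries, replicates 3 and 4 were below all E13.5 libraries, replicate 1 was among them and replicate 2 above them. Without E18.5 control replicate 2 the difference was -0.66 with an edgeR adjusted p of 0.0471.

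Por, the electron donor of the P450 enzymes, rose by less than 1 log2 unit. It had 144, 135, 127 and 132 CPM at E18.5, against 68.8, 86.5, 75, 71.2 and 82.2 CPM at E13.5, a log2 difference of 0.80 (SE 0.0847, edgeR adjusted p = 6.60e-09). Fmo2, the main flavin monooxygenase of mouse lung, which oxidises nitrogen and sulfur groups, had 1043, 955, 744 and 671 CPM at E18.5, against 1.36, 0.508, 1.05, 1.54 and 1.38 CPM at E13.5, a log2 difference of 9.50 (SE 0.227, edgeR adjusted p = 6.41e-21). Its 4 E18.5 values spread more widely than those of Por.

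Among the hydrolases, Ephx1, the microsomal epoxide hydrolase, had 40.9, 38.1, 36.3 and 33.5 CPM at E18.5, against 1.81, 1.78, 1.27, 1.5 and 2.09 CPM at E13.5, a log2 difference of 4.45 (SE 0.139). Ces1d, a carboxylesterase that cleaves ester drugs and lipids, had 397, 341, 384 and 387 CPM at E18.5, against 20.8, 18.7, 17.3, 20.9 and 22.3 CPM at E13.5, a log2 difference of 4.23 (SE 0.116). Aldh3a1, a dehydrogenase of aromatic and medium-chain aldehydes, was nearly silent at E13.5. It had 9.48, 6.47, 5.11 and 6.05 CPM at E18.5, and its 5 control E13.5 libraries held 3 reads in all against 782 at E18.5, a ratio per M total counts of 297 with an exact 95% interval of 101 to 1443.

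Set per kilobase of exons, the order of the 9 genes changed with stage and tissue. In control trachea Cyp2f2 led at 522 ± 43.0 CPM per kb (SD, n = 4), followed by Ces1d at 102 ± 22.2, then Por at 56.8 ± 6.52, Cyp2s1 at 44.2 ± 8.29 and Ephx1 at 40.3 ± 2.90, whose neighbours overlapped. Fmo2 followed at 30.6 ± 2.38 CPM per kb and Cyp4b1 at 12 ± 2.34, and Aldh3a1 and Cyp1b1 were last with overlapping ranges. In control E18.5 lung Ces1d at 159 ± 10.4 and Fmo2 at 152 ± 31.2 CPM per kb overlapped at the top (n = 4). Cyp2f2 came next at 87.7 ± 7.59 CPM per kb, and Cyp1b1 was last at 1.11 ± 0.573. In control E13.5 lung Por at 19.1 ± 1.85 CPM per kb came first without overlapping Ces1d at 8.44 ± 0.834 (n = 5), and Cyp2f2 and Aldh3a1 were last.

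**Figure D2:**
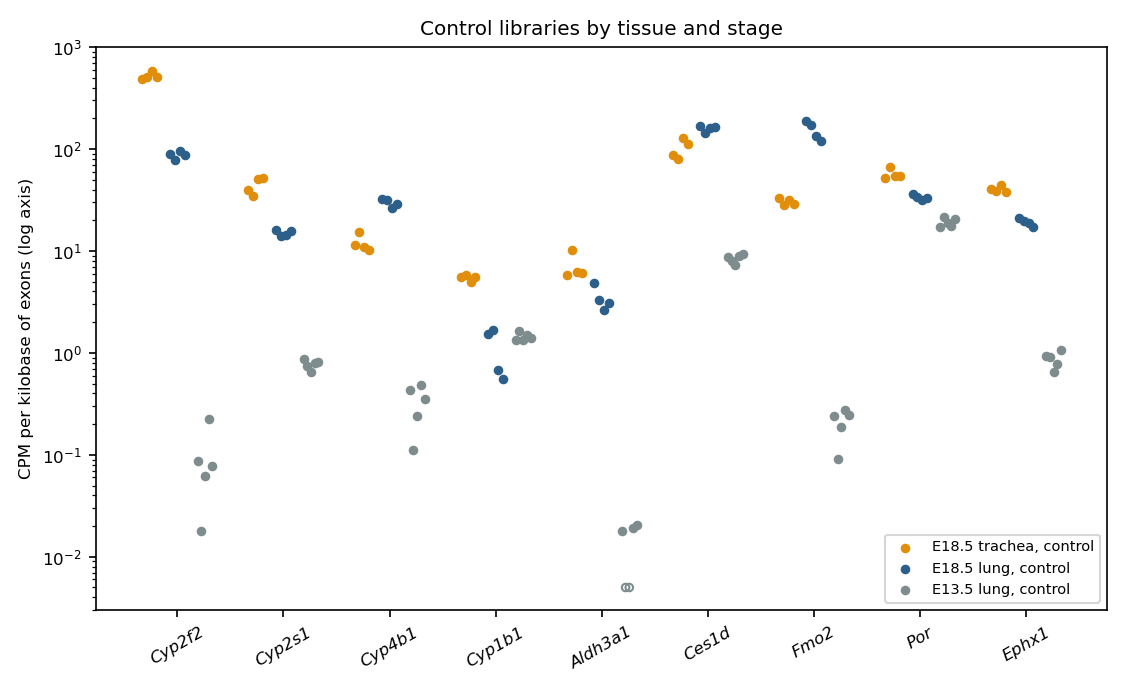
Level of the 9 genes in control libraries, in CPM per kilobase of exons on a log axis. Each point is 1 library of E18.5 trachea (orange), E18.5 lung (blue) or E13.5 lung (grey), and open points drawn at 0.005 are libraries with 0 reads. Cyp2f2 leads in trachea, Ces1d and Fmo2 lead in E18.5 lung, and Por leads in E13.5 lung.

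Counts for the wider enzyme families are given beside the 37.4% of all genes tested that were higher at E18.5. Of 20 P450 genes of families 1 to 4 tested, 15 were higher at E18.5 and 1 lower, and all 4 flavin monooxygenases tested were higher, Fmo1 at a mean of 85.1 CPM in E18.5 lung against 0.789 CPM in E13.5 lung. Cyp2e1, a P450 of ethanol and small solvents, averaged 3.76 CPM at E18.5 and had 0 reads in the control E13.5 libraries. Among the other oxidoreductases 9 of 20 were higher and 7 lower, Cbr2, the carbonyl reductase of lung, with a log2 difference of 9.86 (SE 0.211). Sult1a1, a phenol sulfotransferase, rose by 6.73 (SE 0.167) on the log2 scale, among 2 of 5 sulfotransferases that were higher and 2 that were lower. The counts of higher sulfotransferases and other oxidoreductases lay near the share over all genes.

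Of 20 glutathione transferases, which conjugate electrophiles, 13 were higher and 3 lower, and 12 of 19 aldehyde dehydrogenases were higher and 6 lower. Genes of the redox chain and heme supply split 6 higher and 4 lower of 16, with Alas1, which starts heme synthesis, at a log2 difference of 1.03 (SE 0.0768). Among regulators and targets of AHR and NRF2, 7 of 17 were higher and 8 lower: Ahr, the receptor, had a log2 difference of 2.57 (SE 0.0866) and Txnrd1, an NRF2 target, one of -1.85 (SE 0.0836). The counts of higher genes in these last 2 lists also lay near the share over all genes. Beside these results stand the markers: 14 of 14 ciliated cell genes were higher at E18.5 with a list median of 5.70, 9 of 11 club cell genes were higher with a median of 7.69, and 11 of 12 alveolar type 2 genes with a median of 7.52. Genes of all lung epithelium had 6 higher and 4 lower of 12. Scgb1a1 and Reg3g of club cells had 0 reads in every E13.5 library. The part of cell numbers in the gain was not tested.

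Trachea and lung at E18.5 differed in all 9 enzymes. In control organs Cyp2f2, Cyp2s1, Cyp1b1, Aldh3a1, Por and Ephx1 were higher in trachea, and Cyp4b1, Ces1d and Fmo2 were lower there, all past the edgeR threshold in a fit of the 20 E18.5 libraries. The background was 24.5% of 19859 genes higher and 24.6% lower, 49.1% in all. All 9 genes had library ranges that did not overlap between the 2 tissues, and the replicate block changed none of the 9 calls. The share of all genes without such overlap was not counted, so the overlap count has no background. By level, then, 3 of these 9 airway enzymes were higher in the lung lobes than in the trachea. Tissue and count table are the same split of libraries here too, and their effects cannot be told apart.

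Cyp2f2 had 986, 1036, 1183 and 1021 CPM in control trachea, against 179, 158, 195 and 179 CPM in control lung, a log2 difference of 2.66 (SE 0.119, edgeR adjusted p = 1.97e-15). Cyp2s1 had 196, 172, 249 and 257 CPM in control trachea, against 78.9, 69.0, 70.5 and 76.7 CPM in control lung, a log2 difference of 1.65 (SE 0.137). Both P450 genes were higher in every trachea than in any lung.

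Cyp1b1 had 28.6, 30, 25.5 and 28.5 CPM in control trachea, against 7.85, 8.54, 3.46 and 2.84 CPM in control lung, a log2 difference of 2.38 (SE 0.323). Cyp4b1 ran the other way, with 25.6, 34.9, 24.8 and 23.3 CPM in control trachea, against 72.5, 71.4, 58.9 and 64.4 CPM in control lung, a log2 difference of -1.22 (SE 0.164, edgeR adjusted p = 8.56e-07). The 4 P450 genes therefore did not share a direction between tissues.

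Fmo2 showed the largest deficit in trachea, with 187, 160, 178 and 161 CPM there, against 1043, 955, 744 and 671 CPM in control lung, a log2 difference of -2.23 (SE 0.124, edgeR adjusted p = 1.34e-13). Ces1d had 207, 188, 302 and 265 CPM in control trachea, against 397, 341, 384 and 387 CPM in control lung, a log2 difference of -0.56 (SE 0.145, edgeR adjusted p = 0.00227). Adipocyte genes, which mark another known site of Ces1d expression, summed to 63.4 to 102 CPM in control trachea and 10.1 to 16.9 CPM in control lung. Their part in the Ces1d difference was not tested.

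Por had 207, 267, 219 and 220 CPM in control trachea, against 144, 135, 127 and 132 CPM in control lung, a log2 difference of 0.85 (SE 0.110). Ephx1 had 78.2, 76.2, 86.6 and 73.5 CPM in control trachea, against 40.9, 38.1, 36.3 and 33.5 CPM in control lung, a log2 difference of 1.17 (SE 0.109). These 2 genes, an electron donor and a hydrolase used with many P450 reactions, were again higher in every trachea.

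Aldh3a1 had 11.3, 19.8, 12.1 and 11.9 CPM in control trachea, against 9.48, 6.47, 5.11 and 6.05 CPM in control lung, a log2 difference of 1.10 (SE 0.370, edgeR adjusted p = 0.0159). This call rested on single libraries: without trachea control replicate 2 the difference was 0.88 (edgeR adjusted p = 0.0596), and without lung control replicate 3 it was 0.98 (edgeR adjusted p = 0.0552). Leaving out mutant trachea replicate 4 and control trachea replicate 2 together gave 8 calls, 5 higher and 3 lower, Aldh3a1 being the one lost at 0.87 (edgeR adjusted p = 0.0569).

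Counts for the wider families in the 2 tissues stand beside 24.5% of all genes higher in trachea and 24.6% lower. Of 27 P450 genes tested, 8 were higher in trachea and 9 lower: Cyp2w1 averaged 3.94 CPM in control trachea and 0.0304 CPM in control lung, while Cyp4f18 had 0 reads in every control trachea and 1.38 CPM in control lung. Among aldehyde dehydrogenases 6 of 19 were higher and 7 lower, with Aldh1a1 at a log2 difference of 2.95 (SE 0.119) and Aldh1l1 at -2.61 (SE 0.243). The shares in these 2 families were not far from those over all genes and say nothing particular about them. Glutathione transferases had 9 of 22 higher and 5 lower, Gsto1 at 363 CPM in control trachea and 27.6 CPM in control lung.

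Among the flavin monooxygenases, Fmo1 was higher in trachea at a log2 difference of 0.72 (SE 0.154), and Fmo2 and Fmo4 were lower. Adh1, an alcohol dehydrogenase, was lower in trachea at -3.67 (SE 0.190), as was Xdh, the xanthine oxidase gene, at -3.66 (SE 0.224). The receptor gene Ahr had a log2 difference of -1.28 (SE 0.119), and Ahrr, its repressor, one of 1.31 (SE 0.363). In the same libraries 14 of 14 ciliated cell genes and 9 of 12 club cell genes were higher in trachea, 12 of 12 alveolar type 2 genes were lower, and genes of all lung epithelium summed to 2230.3 to 2509.5 CPM in control trachea and 1681 to 1898 CPM in control lung. Their part in the tissue differences was not tested.

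In E18.5 mutant lung 3 of the 9 enzymes fell: Cyp2s1, Cyp2f2 and Aldh3a1. This is 3 of 9 against a background of 0.550% of 17467 genes called lower and 0.584% called at all. It is a description, since the 9 genes were picked with earlier results of these data known. The 102 calls over all genes became 26 to 205 when single libraries were left out, the lowest without control replicate 1 and the highest without control replicate 2. In all, 8 of the 9 log2 fold changes were below 0, with a median of -0.17 against 0.005 over all genes, and 5 had an unadjusted p under 0.05. The shares of all genes above are for adjusted p and are no background for that last count.

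Cyp2s1 had 46.1, 49.6 and 56.9 CPM (lowest, median and highest of 6) in mutant lung, against 78.9, 69.0, 70.5 and 76.7 CPM in control lung, a log2 fold change of -0.53 (SE 0.0782, edgeR adjusted p = 0.00396). All 6 mutants were below all 4 controls. Cyp2f2 had 110, 134 and 149 CPM in mutant lung, against 179, 158, 195 and 179 CPM in control lung, a log2 fold change of -0.43 (SE 0.0857, edgeR adjusted p = 0.0256). Again no mutant reached a control, and the share of all genes so separated in E18.5 lung was not counted. The Cyp2f2 call depended on single libraries, its edgeR adjusted p being 0.0970 without control replicate 1, 0.113 without control replicate 3, 0.0784 without control replicate 4 and 0.0837 without mutant replicate 4, at log2 fold changes of -0.43, -0.38, -0.43 and -0.42.

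Aldh3a1 had the largest fold of the 9, on low counts: 0.429, 1.43 and 3.77 CPM (lowest, median and highest of 6) in mutant lung, against 9.48, 6.47, 5.11 and 6.05 CPM in control lung, a log2 fold change of -1.94 (SE 0.401, edgeR adjusted p = 0.0433). The ranges did not overlap, again without a count of the share over all genes. When control 1, 3 or 4 or mutant 2, 3, 4 or 5 was dropped, its log2 fold change lay between -2.06 and -1.74 and its edgeR adjusted p between 0.0586 and 0.174. With no filter on low counts its edgeR adjusted p was 0.0899. Another 2 aldehyde dehydrogenases fell in the same lungs: Aldh1a1, which oxidises retinaldehyde, averaged 63.5 ± 5.55 CPM in mutant and 93.0 ± 16.5 CPM in control lung (SD, n = 6 and 4; log2 fold change -0.55, edgeR adjusted p = 0.0146), and its close copy Aldh1a7 averaged 95.9 ± 7.73 CPM in mutant and 122 ± 8.65 CPM in control lung (log2 fold change -0.35, edgeR adjusted p = 0.0256). That made 3 of 19 in the family.

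The remaining P450 genes did not pass. Cyp4b1 had 51.9, 57.6 and 76.9 CPM in mutant lung, against 72.5, 71.4, 58.9 and 64.4 CPM in control lung, a log2 fold change of -0.16 (SE 0.101, edgeR adjusted p = 0.681). Cyp1b1 had 3.44, 6.08 and 9.99 CPM in mutant lung, against 7.85, 8.54, 3.46 and 2.84 CPM in control lung, a log2 fold change of 0.13 (SE 0.343, edgeR adjusted p = 0.947), with overlapping ranges. In the family, 2 of 20 P450 genes tested were called, both lower and both among the 9.

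Ephx1 came closest to the threshold among the rest. It had 27.8, 28.7 and 34.0 CPM in mutant lung, against 40.9, 38.1, 36.3 and 33.5 CPM in control lung, a log2 fold change of -0.33 (SE 0.0876, edgeR adjusted p = 0.118), and DESeq2 gave an adjusted p of 0.0230. One mutant overlapped the lowest control. Por had 108, 133 and 146 CPM in mutant lung, against 144, 135, 127 and 132 CPM in control lung, a log2 fold change of -0.04 (SE 0.0756), Fmo2 had 706, 786 and 872 CPM in mutant lung, against 1043, 955, 744 and 671 CPM in control lung (-0.11, SE 0.106), and Ces1d had 303, 335 and 383 CPM in mutant lung, against 397, 341, 384 and 387 CPM in control lung (-0.17, SE 0.0698, edgeR adjusted p = 0.456).

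No gene was called among the carboxylesterases, flavin monooxygenases, epoxide hydrolases, glutathione transferases, glucuronosyltransferases, sulfotransferases, other oxidoreductases, redox partners, AHR and NRF2 genes or efflux transporters in E18.5 lung by edgeR. Cbr2, one of the 2 most abundant of the other oxidoreductases, averaged 416 ± 25.9 CPM in mutant and 506 ± 38.5 CPM in control lung (log2 fold change -0.28, edgeR adjusted p = 0.0633). Ahr had a log2 fold change of -0.16 (SE 0.0768), and Nfe2l2, which codes for NRF2, one of -0.02 (SE 0.0560).

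**Figure D3:**
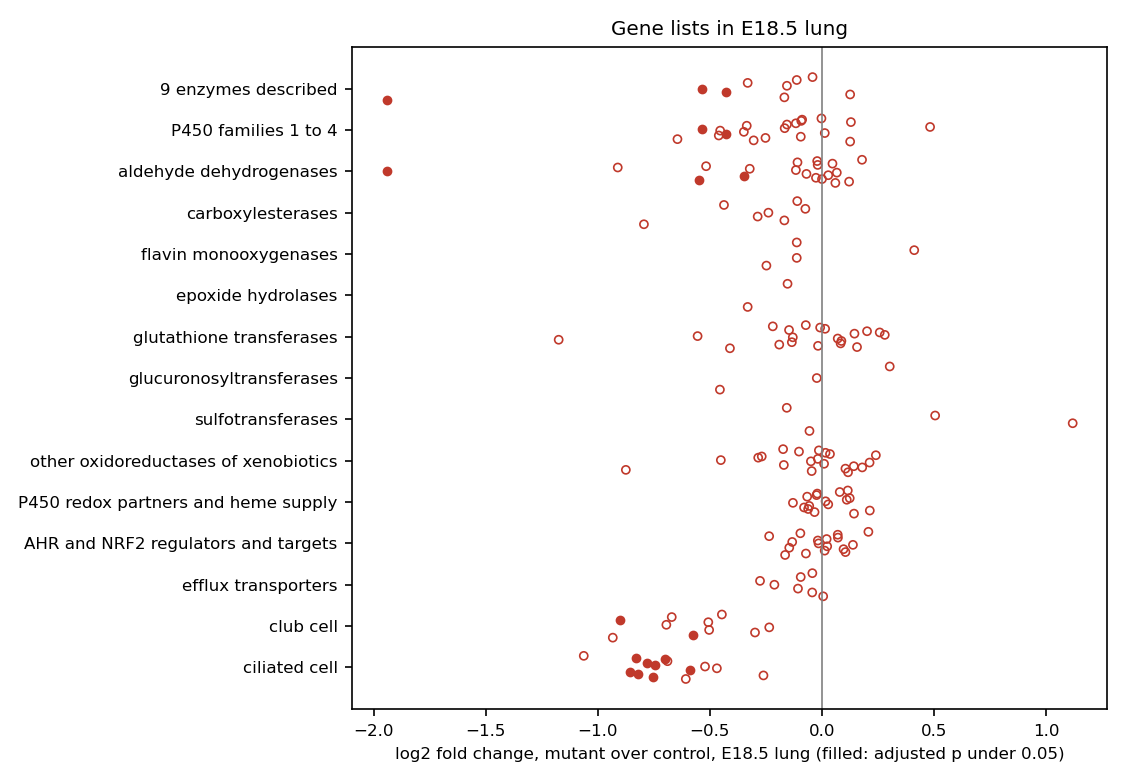
Log2 fold change of mutant over control in E18.5 lung for every tested gene of each list (1 circle per gene; vertical spread within a row only separates the circles). Filled circles passed an adjusted p of 0.05 with edgeR. Calls among the enzymes sit with Cyp2s1, Cyp2f2, Aldh3a1, Aldh1a1 and Aldh1a7, and the club and ciliated rows lie left of 0.

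Markers of airway epithelial cells moved in the same lungs. Club cell genes summed to 852 to 1217 CPM in mutant lung and 1461 to 1790.0 CPM in control lung, 2 of 10 tested being lower: Scgb1a1, the club cell secretoglobin, at 373 ± 52.0 CPM in mutant and 698 ± 51.2 CPM in control lung, and Hp at 185 ± 29.6 CPM in mutant and 275 ± 24.5 CPM in control lung. Ciliated cell genes summed to 191 to 243 CPM in mutant lung and 294 to 343 CPM in control lung, with 8 of 14 lower. Genes of all lung epithelium summed to 1660.3 to 1804 CPM in mutant and 1681 to 1898 CPM in control lung, with 0 of 12 called. Ribosomal RNA, mitochondrial included, took 0.123% to 0.169% of counts in mutant lung and 0.0924% to 0.120% in control lung, without overlap. With that share as a covariate none of the 9 genes was called, Cyp2f2 being at -0.48, Cyp2s1 at -0.41 and Aldh3a1 at -1.30 on the log2 scale. The part of these markers in the enzyme falls was not tested, and the ribosomal share cannot be told apart from genotype here.

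Relative to Scgb1a1, Cyp2f2 was higher in mutant lung. The log2 ratio of Cyp2f2 to Scgb1a1 counts averaged -1.50 ± 0.15 in mutant lung and -1.98 ± 0.22 in control lung (SD, n = 6 and 4), a difference of 0.48 with no overlap between genotypes (exact permutation test, two-sided, p = 0.00476, the smallest this design allows, and 0.00952 adjusted over 2 tests). The lowest mutant library was at -1.65 and the highest control at -1.67. Both genes were called lower in mutant lung, Scgb1a1 by the larger fold, and they were chosen with earlier results of these data known. The higher ratio restates those falls and is a description. In trachea the ratio averaged -0.57 ± 0.83 in mutants and -0.90 ± 0.31 in controls, a difference of 0.33 (exact permutation p = 0.519). Without mutant trachea replicate 4, whose ratio was -2.21, the difference was 0.66 (exact permutation p = 0.0238, not adjusted over the 2 tests). With all libraries no difference was shown in trachea.

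**Figure D4:**
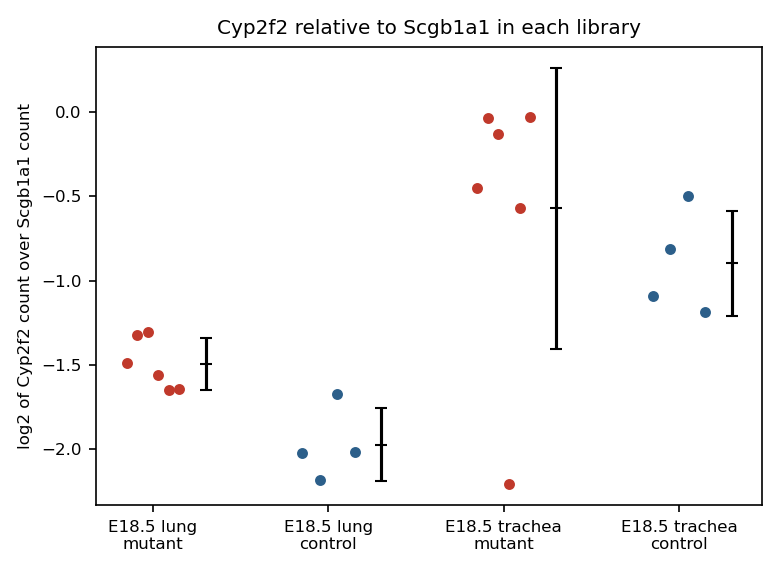
Log2 of the Cyp2f2 count over the Scgb1a1 count (0.5 added to each) in each E18.5 library, mutant in red and control in blue. Black marks beside the points are the mean and SD. In lung every mutant lies above every control, and in trachea 1 mutant library lies at -2.21, below all others.

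In E18.5 mutant trachea none of the 9 enzymes was called by edgeR, where 0.0710% of 18315 genes were, and 2 of the 9 had an unadjusted p under 0.05. That share is for adjusted p and is no background for the count by unadjusted p. DESeq2 called 1, Fmo2. Without mutant replicate 4 and control replicate 2 the count of the 9 was also 0, while 45 of all genes were called in place of 13.

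Fmo2 had 119, 127 and 153 CPM (lowest, median and highest of 6) in mutant trachea, against 187, 160, 178 and 161 CPM in control trachea, a log2 fold change of -0.40 (SE 0.0972, edgeR adjusted p = 0.290), and DESeq2 gave an adjusted p of 0.0153. All 6 mutants were below all 4 controls, the only such separation among the 9 in trachea. The share of all genes so separated was not counted. Aldh3a1 had 6.95, 8.71 and 12 CPM in mutant trachea, against 11.3, 19.8, 12.1 and 11.9 CPM in control trachea, a log2 fold change of -0.60 (SE 0.214, edgeR adjusted p = 0.660). Its ranges overlapped.

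Cyp2f2 had 831, 1059 and 1143 CPM in mutant trachea, against 986, 1036, 1183 and 1021 CPM in control trachea, a log2 fold change of -0.02 (SE 0.111). Cyp2s1 had 166, 199 and 278 CPM in mutant trachea, against 196, 172, 249 and 257 CPM in control trachea, a log2 fold change of -0.06 (SE 0.15). Both P450 genes called in mutant lung were thus near 0 here, with standard errors larger than in lung.

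Ephx1 was the one with a value above 0, at 72.9, 89.5 and 102 CPM in mutant trachea, against 78.2, 76.2, 86.6 and 73.5 CPM in control trachea (log2 fold change 0.15, SE 0.112). Por (-0.24, SE 0.114), Ces1d (-0.27, SE 0.161), Cyp4b1 (-0.19, SE 0.179) and Cyp1b1 (-0.17, SE 0.175) lay below 0 without a call. Club cell genes summed to 37391 to 87025 CPM in mutant and 51082 to 58542 CPM in control trachea, and ciliated genes to 881 to 1233 CPM in mutant and 863 to 1248 CPM in control trachea, with 0 of 12 and 0 of 14 called.

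**Figure D5:**
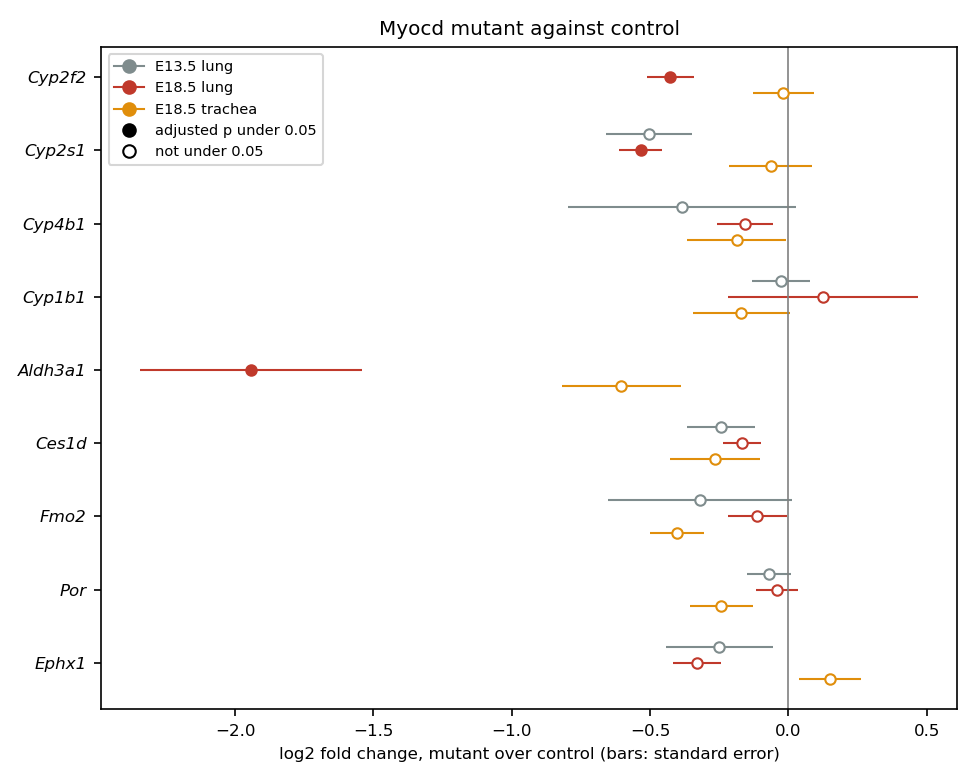
Log2 fold change of mutant over control for the 9 genes in E13.5 lung (grey), E18.5 lung (red) and E18.5 trachea (orange), with standard errors from edgeR. Filled points passed an adjusted p of 0.05. Cyp2f2 and Aldh3a1 were not tested at E13.5, Aldh3a1 reaches -1.94 in E18.5 lung, and the filled points are Cyp2f2, Cyp2s1 and Aldh3a1 in E18.5 lung.

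At E13.5 none of the 7 tested enzymes was called by edgeR or by DESeq2, where 0.206% of 16486 genes were called by edgeR, and 1 of the 7 had an unadjusted p under 0.05. The share over all genes is again for adjusted p only. All 7 log2 fold changes were below 0, with a median of -0.25 against 0.01 over all genes. Cyp2s1 had 2.85, 1.93, 3.22, 3.14 and 2.32 CPM in mutant lung, against 4.32, 3.66, 3.21, 3.90 and 3.98 CPM in control lung, a log2 fold change of -0.50 (SE 0.155, unadjusted p = 0.00686, edgeR adjusted p = 0.747). One mutant library overlapped the controls.

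Ces1d had 20.7, 12.3, 16.4, 18.1 and 17.1 CPM in E13.5 mutant lung, against 20.8, 18.7, 17.3, 20.9 and 22.3 CPM in control lung (log2 fold change -0.24, SE 0.123). Por had 71.3, 70.0, 84.0, 68.3 and 72.2 CPM in mutant lung, against 68.8, 86.5, 75, 71.2 and 82.2 CPM in control lung (-0.07, SE 0.0797), and both overlapped. Ephx1 (-0.25, SE 0.194), Cyp4b1 (-0.38, SE 0.412), Fmo2 (-0.32, SE 0.331) and Cyp1b1 (-0.03, SE 0.105) had mean levels between 0.547 and 7.44 CPM in the 2 genotypes. Cyp2f2 held 4 reads in the 5 mutant libraries and 25 in the 5 control libraries, a ratio per M total counts of 0.175 with an exact 95% interval of 0.0444 to 0.508 for counting error alone. Without control replicate 4 the ratio was 0.269 (0.0640 to 0.872), and without mutant replicate 5, which held 2 of the 4 reads, it was 0.112 (0.0129 to 0.451). With no filter on low counts its log2 fold change was -2.35 (SE 0.743, edgeR adjusted p = 0.856). Aldh3a1 held 4 reads in mutants and 3 in controls, and at this depth no difference was detectable for it.

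Differences of the mutant effect between tissues and between stages were tested directly. The backgrounds given with them are for adjusted p, not for counts of unadjusted p. Between E18.5 trachea and lung none of the 9 was called by edgeR or DESeq2, with a background of 0.0252% called by edgeR, and 4 had an unadjusted p under 0.05. For these 4 the mutant effect was higher in trachea than in lung: Ephx1 by 0.52 (SE 0.139, edgeR adjusted p = 0.252), Cyp2s1 by 0.51 (SE 0.173), Cyp2f2 by 0.45 (SE 0.144) and Aldh3a1 by 1.38 (SE 0.483) on the log2 scale. Between E18.5 and E13.5 lung none was called by either tool, with a background of 0.0268%, and only Cyp2f2 had an unadjusted p under 0.05, at a difference of 1.92 (SE 0.700) that rests on the few reads at E13.5. The falls in E18.5 mutant lung are not shown to be particular to that tissue or stage.

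The genes whose levels most resembled each of the 9 were listed across the 30 libraries. The measure was Pearson's r of log2(CPM + 1) against 14188 other protein-coding genes, given as a description, since the libraries share stage, tissue and depth. Cyp2f2 was most like Cbr2 (r = 0.998), Dpt and Ephx1, and Ephx1 most like Cbr2 (0.998), Cyp2f2 and Cfap65. Cyp2s1 was most like Foxj1 (0.997), the ciliated cell factor, Ccdc17 and Kndc1. Fmo2 was most like Scnn1a (0.998), Sftpb, a surfactant protein gene, and Cyp4b1, and Cyp4b1 most like Fmo2 (0.996), Trib2 and Dpep1.

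Ces1d was nearest to Gsn (0.993), Il18r1 and Slc44a3, Por to Acox2 (0.977), Tob1 and Ttc25, Aldh3a1 to Kctd11 (0.972), Dlec1 and Dnah12, and Cyp1b1 to Inhba (0.961), Cthrc1 and Angptl1. Without mutant trachea replicate 4 the 3 genes nearest to Por were others, led by Sgsm3 (0.985). With the mean of each of the 6 groups taken away, Cyp2f2 and Ephx1 had an r of 0.0420, against 0.997 over the 30 libraries, and 0.121 without mutant trachea replicate 4. Cyp4b1 and Fmo2 had an r of 0.655 within groups and 0.662 without that library. Cyp2f2 and Scgb1a1 had an r of -0.416 within groups, which rested on that library, since without it r was 0.0805. The gene nearest to Fmo2 within groups was Adam28 with that library (0.83) and without it (0.846), while the one nearest to Cyp2f2 was Pla2g4a with it (0.808) and 5330417C22Rik without it (0.754).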

How the data were processed

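The 30 libraries were made from polyA RNA of single lungs or tracheas and read as single reads of 75 bases, per the labels' protocols. The deposited values are whole-number read counts per gene, which the authors made with featureCounts 1.6.2 on GENCODE vM17 genes (both per the file headers), after alignment with STAR to GRCm38, per the submitters' processing notes. The exon length of each gene, per the file headers, gave the levels per kilobase. All 53715 genes are shared by the 3 tables, and 53620 had a symbol.

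From these counts, CPM was computed on TMM-scaled library sizes within each table, so that levels set side by side across tables carry that separate scaling, while the stage and tissue fits scaled their 20 libraries together. Genes were tested with edgeR 4.0.16 (quasi-likelihood test, filterByExpr, robust) in R 4.3.3, with Benjamini-Hochberg adjustment over all genes tested and a threshold of 0.05. Standard errors are the log2 fold change divided by the square root of F. Scripts were tested on simulated data. The alternatives were DESeq2 1.42.0, RLE normalization, no filter or a filter of 1 CPM, the replicate block, the ribosomal RNA share as a covariate and leaving out each library. Leaving out the 2 trachea libraries that stood apart, also from the correlations, and leaving out single libraries from the ratios of low counts were added after seeing the data.

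All 9 genes are named in every comparison. From each other list, up to 4 called genes with the largest change and at least 1 CPM, or the 2 most abundant where none was called, could be named, and for each of the 9 the 3 genes most like it. The 9 genes and the lists were chosen with earlier results of these data known. No pair of replicates was alike within counting noise, with chi-square values of at least 4.11 per degree of freedom. Same-numbered E18.5 trachea and lung deviated together, with r from 0.137 to 0.238 in controls and 0.0860 to 0.263 in mutants. The trachea was most like the lung of its own number in 4 of 4 control and 6 of 6 mutant pairs. Same-numbered lungs of E18.5 and E13.5, which are different embryos, had r from 0.0714 to 0.179 in controls and -0.106 to 0.0739 in mutants. There the own number was the best match in 2 of 4 and 0 of 5 pairs. The labels do not say what the numbers mark, so whether same-numbered trachea and lung are paired is not settled. The main tissue fits treated them as independent, with the replicate block as an alternative. Intervals cover counting error only.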

Additional observations from a re-analysis of the deposited data

Results flagged for a closer look

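Among the 54 sets of libraries examined (9 genes in 6 groups), 4 had a library far from the rest of its group, where chance gives about 1 in 20. Cyp2f2 was lowest in mutant trachea replicate 4, at 831 CPM against 1045 to 1143 CPM in the other 5 mutants, in the library with 15.7% ribosomal RNA. Aldh3a1 was highest in control trachea replicate 2, the shallowest library, at 19.8 CPM against 11.3 to 12.1 CPM in the other 3 controls. Fmo2 was highest in mutant trachea replicate 1, at 153 CPM against 119 to 129 CPM in the other 5 mutants. Por was highest in E13.5 mutant lung replicate 3, at 84.0 CPM against 68.3 to 72.2 CPM in the other 4 mutants. The causes were not tested.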

How the results depend on the processing

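In E18.5 lung the count of 3 called enzymes was 0 with the ribosomal RNA share as a covariate and 1 to 3 when single libraries were left out, being 1 without control replicate 1, 3 or 4 or mutant replicate 4. With that covariate Cyp4b1 was at 0.0093 and Fmo2 at 0.15. With the replicate block Cyp2f2 was at -0.39 (edgeR adjusted p = 0.0865). The block changed no other call among the 9 genes. In trachea DESeq2 called 1. There Cyp2f2 was at 0.090 and Cyp1b1 at 0.042 with the covariate, and Cyp2f2 at 0.032, Cyp4b1 at 0.038 and Cyp2s1 at -0.26 without mutant replicate 4 and control replicate 2. The Cyp2f2 to Scgb1a1 difference in lung was 0.56 with the replicate block (exact permutation p = 0.125, the smallest 4 pairs allow). In trachea the difference was 0.22 to 0.66 when single libraries were left out, the highest without mutant replicate 4 (exact permutation p = 0.0238, unadjusted). The trachea minus lung mutant effect on Cyp4b1 was -0.012 with DESeq2, -0.013 with RLE normalization and -0.0378 with no filter.

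Leaving out single libraries turned the sign of some values near 0. Of the values below, only Cyp4b1 in mutant against control trachea kept its sign. The range was -0.097 to 0.39 for Cyp1b1 and -0.076 to 0.0072 for Por in E18.5 lung, and -0.085 to 0.018 for Cyp1b1 in E13.5 lung. In trachea it was -0.052 to 0.039 for Cyp2f2, -0.17 to 0.021 for Cyp2s1 and -0.27 to -0.048 for Cyp4b1. For the trachea minus lung mutant effect it was -0.063 to 0.16 for Cyp4b1 (0.24 without both trachea libraries) and -0.17 to 0.073 for Ces1d. For the E18.5 minus E13.5 mutant effect it was -0.13 to 0.043 for Cyp2s1, -0.075 to 0.41 for Cyp1b1, -0.024 to 0.16 for Ces1d, -0.019 to 0.078 for Por and -0.19 to 0.035 for Ephx1. The causes were not tested.

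Over all genes, E18.5 lung had 102 calls with edgeR, 266 with DESeq2, 192 with no filter and 4 with the covariate. E13.5 lung had 34 with edgeR, 82 with DESeq2 and 0 with the replicate block. Trachea had 13 with edgeR, 87 with DESeq2, 22 with no filter and 28 with the block. The tissue and stage interactions had 5 each with edgeR, against 64 and 41 with DESeq2. Leaving out single libraries gave 26 to 205 calls in E18.5 lung (59 or fewer without control 1, 3 or 4 or mutant 4, and 205 without control 2), 17 to 56 in E13.5 lung (20 or fewer without control 1, 3, 4 or 5 or mutant 3, and 56 without mutant 1) and 3 to 16 in trachea (8 or fewer without control 1, 3 or 4 or mutant 1 or 3). For the tissue and stage interactions it gave 2 to 9 and 3 to 19, the highest of each without E18.5 lung control replicate 2. In same-numbered mutants and controls, r of their deviations was -0.254 to -0.0241 at E13.5, 0.0583 to 0.318 in E18.5 lung and -0.300 to 0.385 in trachea. The labels do not say what the numbers mark. Depth limits Cyp2f2 and Aldh3a1 at E13.5.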
